A study of Homo sapiens with 6 samples.

Results

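Keratins KRT7, KRT8, KRT18, KRT19, KRT80 and KRT81 were examined in MCF10A cells with and without growth factors. The 6 genes were taken by name as simple or luminal keratins, and all 6 were found among the 19198 genes listed and among the 16988 genes tested, whose mean over the samples was 10 normalized counts or more. MCF10A is an established, non-tumorigenic line of human mammary epithelial cells that originated from breast with fibrocystic disease, so every sample comes from the same line. Of the 6 RNA-Seq samples, 3 were grown with hydrocortisone at 0.5 µg/ml, cholera toxin at 100 ng/ml, insulin at 10 µg/ml and EGF at 20 ng/ml, and 3 were grown in medium that lacked these 4 additions (growth factor depletion). By the labels, both media were DMEM:F12 with 5% horse serum, antibiotics and glutamine, so serum was never withdrawn. The methods of the study name glutamine only for the medium with growth factors. The labels number the samples as replicates 1 to 3 in each condition, whereas the design text of the deposit speaks of 2 replicates. The day of harvest is not given for these samples, and no source used here says whether replicates were separate cultures, so p-values measure only the spread between these samples. Depletion removed all 4 additions at once, and their effects cannot be told apart.

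Keratins form the intermediate filaments of epithelial cells. Every filament is built from heterodimers of an acidic type I and a basic type II keratin, and a keratin without a partner is rapidly degraded. KRT8 and KRT18 are the founding pair of simple epithelia and, in the breast, mark luminal cells together with KRT7 and KRT19, while KRT5 and KRT14 are the pair of the basal layer and KRT6A, KRT16 and KRT17 are induced in wounded or stressed epidermis. KRT80 is an epithelial type II keratin with a wide tissue distribution, and KRT81 is a hair cortex keratin that breast epithelial lines also express. These last 2 genes are therefore not classical simple keratins, and they are described under the name only because the list holds them.

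KRT19 was the keratin of the list that passed the test, and it was down-regulated 5.30-fold without growth factors, from a low level. KRT80 was higher in every depleted sample than in any control and had a 3.76-fold higher mean, but its adjusted p missed the threshold. KRT8 and KRT18 had about 2-fold higher means without growth factors (1.98-fold and 2.01-fold), with overlapping groups, and neither passed. KRT7 stayed among the most abundant transcripts of all 6 samples, and KRT81 had the widest spread between replicates of the 6 keratins in both groups. In the controls, the highest values of KRT7, KRT8 and KRT18 were 3.46, 3.54 and 3.61 times the lowest. These 3 keratins and KRT81 thus varied more between the controls than their means differed between conditions. As the samples are bulk RNA, fewer cells that express a keratin and less of its RNA per cell cannot be told apart.

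A gene was called when limma gave a Benjamini-Hochberg adjusted p under 0.05 over all genes tested together with a change of at least 2-fold. By this rule 1 of the 6 keratins was called, and of all genes tested 1076 of 16988 (6.33%) were called, 741 up and 335 down. The median log2 fold change (without minus with growth factors) was 0.76 over the 6 keratins, 4 of them positive and 2 negative, beside -0.03 over all genes tested. Normalized counts are read counts divided by a size factor for each library and are not divided by transcript length. Levels of different genes were therefore compared per kilobase of the canonical transcript. The exceptions were sums of a keratin with its pseudogene copies and sums of fibroblast or endothelial markers, which were taken in normalized counts.

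**Figure D1:**
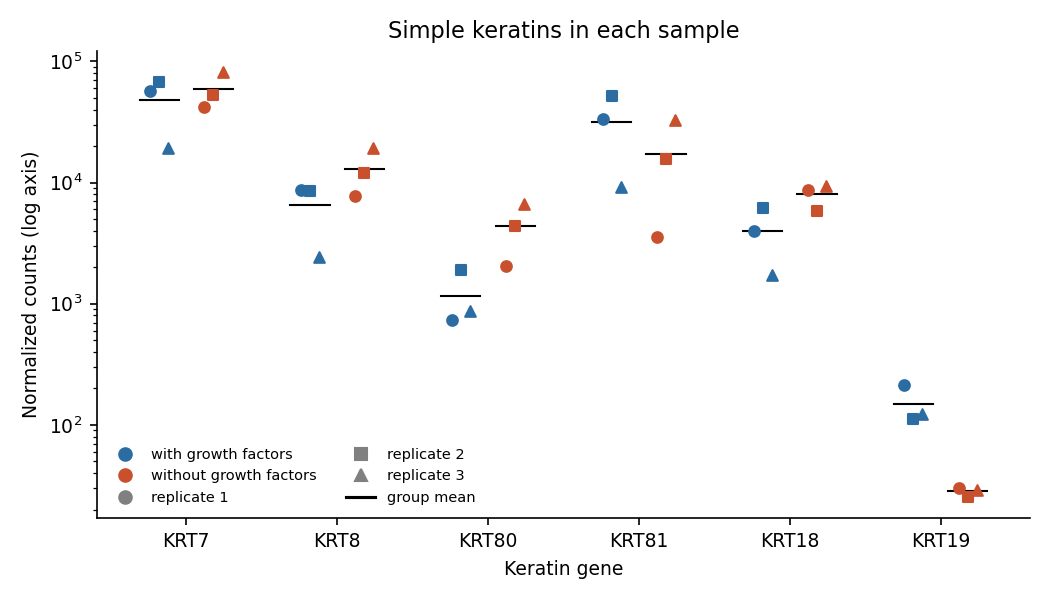
Normalized counts (log axis) of the 6 keratins in the 3 samples with growth factors (blue) and the 3 without (red), with symbols for the replicate number and black lines for group means. The groups are apart for KRT80 and KRT19 and overlap for the other 4, and control replicate 3 (blue triangle) is the lowest control for KRT7, KRT8, KRT81 and KRT18.

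KRT8, the type II keratin of the simple pair, is ENSG00000170421.10 at chr12:52897187-52949954 on the minus strand (hg38). It gave 8635, 8570 and 2442 normalized counts in control replicates 1 to 3. Growth factor depletion gave 7755, 11928 and 19305. Control replicate 3 was far below the other controls, and depleted replicate 1 lay below both of them, so the groups overlapped. The means were 6549 ± 3557 with and 12996 ± 5849 without growth factors (SD, n = 3). On the log2(normalized count + 1) scale the difference was 1.10 (SE 0.57, 95% interval -0.20 to 2.40, limma adjusted p = 0.336). Without control replicate 3 it was 0.50 (adjusted p = 0.443).

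KRT18, the type I partner of KRT8, is ENSG00000111057.9 at chr12:52948871-52952906 on the plus strand. It gave 4000, 6188 and 1716 normalized counts in the controls. The depleted samples gave 8660, 5867 and 9436. Only depleted replicate 2 reached into the range of the controls, just below control replicate 2. The means were 3968 ± 2236 and 7987 ± 1877 (SD, n = 3), and the log2 difference was 1.17 (SE 0.48, 95% interval 0.07 to 2.26), with an adjusted p of 0.220 by limma. Without control replicate 3 it was 0.65 (adjusted p = 0.221). The gene spans of KRT8 and KRT18 overlap on opposite strands. The libraries were strand-specific, but the strand setting of the counting is not given in the sources used here, so reads in the overlap cannot be assigned with certainty.

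Both genes of this pair have many processed pseudogenes, and the deposited counts listed 21 copies named after KRT8 and 21 named after KRT18. A read is assigned between gene and copy only by the bases at which they differ. The stretch below shows how close such a copy is for KRT18P38, the most counted copy of KRT18, at chr6:19612755-19614036 on the plus strand (hg38, Gencode v44 transcripts). It shared 91.8% of 1265 aligned coding bases with KRT18. The stretch is the 100 coding bases with the most differences among stretches aligned without gaps. It covers coding bases 792 to 891 of KRT18 and is printed in the sense of the transcript from 5′ to 3′. Capitals mark the 15 bases that differ.
KRT18: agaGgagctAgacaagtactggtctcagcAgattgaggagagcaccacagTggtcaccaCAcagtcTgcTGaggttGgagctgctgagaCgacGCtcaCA
KRT18P38: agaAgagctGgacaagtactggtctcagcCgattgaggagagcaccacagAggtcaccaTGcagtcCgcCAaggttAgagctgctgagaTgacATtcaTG

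In this stretch, which has the length of a read, the copy differed at 15 of 100 bases. Of the 1685 windows of 100 bases along the canonical KRT8 transcript, 120 (7.12%) also occurred unchanged in transcripts of 4 other genes. None of the 1314 windows of KRT18 did, nor any of KRT7, KRT19 or KRT80. In the deposited counts the KRT8 copies summed to 4300, 3730 and 1217 with and 2980, 4883 and 7683 without growth factors. That was 30.3% to 33.3% of gene and copies together in the controls and 27.8% to 29.1% in the depleted samples, so the share was lower in all 3 depleted samples. The KRT18 copies took 19.3% to 23.1% in the controls and 18.01% to 18.5% in the depleted samples, again without overlap. None of the 14 KRT8 copies or 17 KRT18 copies tested was called. With the copies added to the gene, the log2 difference was 1.02 for KRT8 (limma adjusted p = 0.384) and 1.11 for KRT18 (adjusted p = 0.242), close to the values of the genes alone.

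The balance of the pair was taken within each sample, which removes the scaling of the library. Per kilobase, KRT8 exceeded KRT18 1.71-fold, 1.10-fold and 1.13-fold in the controls. The ratios in the depleted samples were 0.709, 1.61 and 1.62. Depleted replicate 1 was the sample in which KRT18 exceeded KRT8, and the other depleted samples lay between the controls. The mean log2 ratio differed by -0.06 between the conditions (exact two-sided permutation test, p = 0.8, 3 against 3, where 0.1 is the smallest p the design can give). The difference was 0.33 without depleted replicate 1 and 0.14 without control replicate 1, so that its sign depended on these samples.

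**Figure D2:**
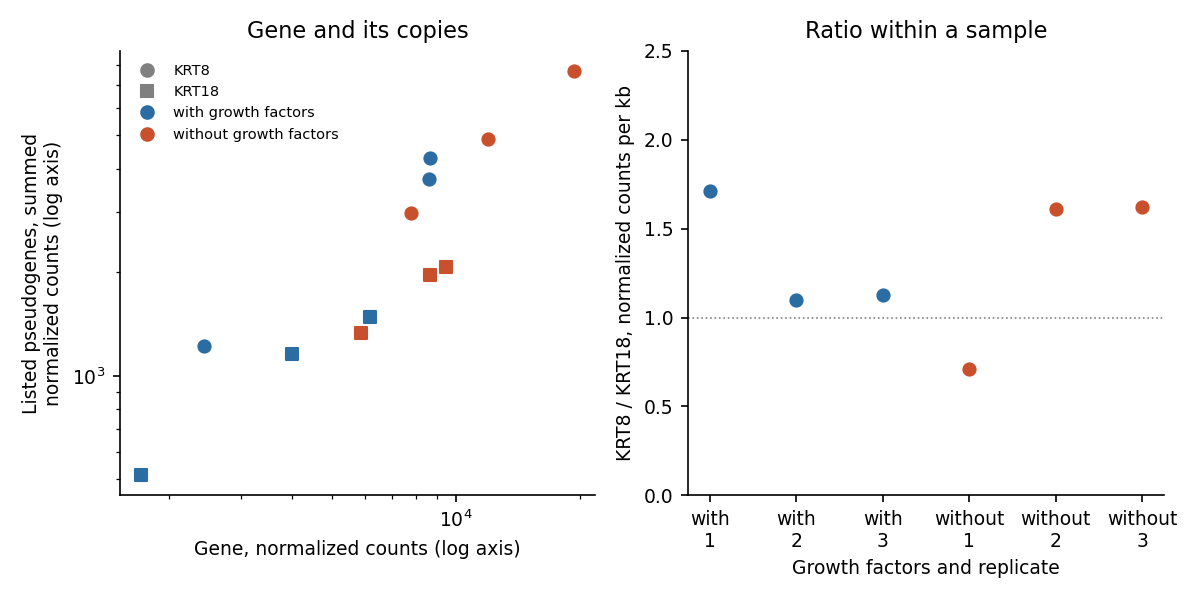
Left, summed normalized counts of the listed pseudogenes against those of the gene (both axes log) for KRT8 (circles) and KRT18 (squares) in the 3 samples with (blue) and 3 without (red) growth factors. Right, ratio of KRT8 to KRT18 per kilobase in each sample, with a dotted line at 1, showing depleted replicate 1 at 0.709 and the other 5 samples between 1.10 and 1.71.

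KRT7, a type II keratin of glandular and ductal epithelia, is ENSG00000135480.13 at chr12:52232520-52252186 on the plus strand. It gave 57118, 67336 and 19463 normalized counts in the controls. In the depleted samples it gave 42042, 52761 and 81911. The controls enclosed depleted replicates 1 and 2, and the means were 47972 ± 25213 and 58905 ± 20633 (SD, n = 3). The log2 difference was 0.43 (SE 0.63, 95% interval -1.01 to 1.86, limma adjusted p = 0.773). It was -0.13 without control replicate 3 and -0.045 after quantile normalization, so its direction depended on the setting. The interval includes a 2-fold change in either direction, and a difference of that size was not excluded by these samples. Per kilobase, KRT7 ranked between 5 and 19 among all genes with a length in each of the 6 samples, and it was the most or second most abundant keratin in all 6. An antisense gene named KRT7-AS lies at the same locus. It gave 2.51, 130 and 39.3 normalized counts with and 98.9, 89.2 and 134 without growth factors, which overlapped. Its log2 difference was 2.01 (limma adjusted p = 0.385), but control replicate 1 held only 2 reads and the ratio of means was 1.87. As the strand setting of the counting is not given, reads in this overlap cannot be assigned with certainty. The end of KRT7 also lies inside the span of the hair keratin gene KRT86 on the same strand. Reads in that overlap cannot be told apart by strand.

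KRT19, the type I keratin that lacks a tail domain, is ENSG00000171345.12 at chr17:41523617-41528308 on the minus strand and is the member outside the chromosome 12 cluster. It gave 214, 111 and 124 normalized counts in the controls, from 171, 190 and 126 reads. The depleted samples gave 30.2, 25.6 and 29.1, from 33, 39 and 13 reads. All depleted samples lay below all controls, an order that 2053 of the 16988 genes tested shared (12.1%). The means were 150 ± 56.2 and 28.3 ± 2.41 (SD, n = 3), and the log2 difference was -2.31 (SE 0.44, 95% interval -3.32 to -1.29, limma adjusted p = 0.0196). Of all genes tested, 1.97% were called lower. On the recovered reads edgeR gave an adjusted p of 0.0236 and DESeq2 2.2e-05. The limma call was lost without control replicate 1 (adjusted p = 0.0836), without depleted replicate 2 (0.0914) and without depleted replicate 3 (0.0882), with log2 differences of -2.02 to -2.33. Per kilobase, the median fell from 89.2 to 20.9, and KRT19 ranked between 13 and 16 among the keratins, so the keratin that was called was also the scarcest of the 6.

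KRT80 is ENSG00000167767.12 at chr12:52168996-52192014 on the minus strand. It gave 732, 1892 and 864 normalized counts in the controls. Without growth factors it gave 2046, 4356 and 6717. All depleted samples lay above all controls, although depleted replicate 1 exceeded control replicate 2 only slightly, and 13.5% of all genes tested had this order. The means were 1162 ± 635 and 4373 ± 2336 (SD, n = 3), and the log2 difference was 1.88 (SE 0.51, 95% interval 0.71 to 3.05). Its limma adjusted p of 0.0700 was not past the threshold, and edgeR also gave 0.0700. DESeq2 on the recovered reads called it higher (adjusted p = 0.00488), as it did 7.58% of all genes tested. In limma it was also called after quantile normalization (adjusted p = 0.0489) and without depleted replicate 1 (0.0312, log2 difference 2.35). In the other leave-one-out fits the log2 difference was 1.49 to 2.30 and was not called. KRT80 had the longest canonical transcript of the 6 (3873 bases), and after a correction for transcript length its log2 difference was 1.87 (adjusted p = 0.0747).

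KRT81 is ENSG00000205426.9 at chr12:52285913-52291534 on the minus strand. It gave 33648, 52167 and 9251 normalized counts in the controls. The depleted samples gave 3587, 15553 and 33002. Depleted replicate 3 came close to control replicate 1, and control replicate 3 lay below both depleted replicates 2 and 3. The means were 31689 ± 21525 and 17381 ± 14793 (SD, n = 3), with a log2 difference of -1.05 (SE 0.89, 95% interval -3.09 to 0.995, limma adjusted p = 0.592). Without depleted replicate 1 the difference was -0.16, and without control replicate 3 it was -1.77. The highest value was 5.64 times the lowest in the controls and 9.20 times in the depleted samples, the widest spread among the 6 keratins in both groups.

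The KRT81 locus lies inside the span of another hair keratin gene, KRT86 (chr12:52249300-52309163, plus strand), and the transcripts of the 2 genes are close in sequence. Of the 1510 aligned coding bases, 91.5% were identical. The stretch of 100 coding bases with the most differences, among stretches aligned without gaps, covers coding bases 1227 to 1326 of KRT81. It is printed below from 5′ to 3′ of each transcript, with capitals at the 19 bases that differ.
KRT81: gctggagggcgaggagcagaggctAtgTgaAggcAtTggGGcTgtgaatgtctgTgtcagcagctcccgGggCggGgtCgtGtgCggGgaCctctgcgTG
KRT86: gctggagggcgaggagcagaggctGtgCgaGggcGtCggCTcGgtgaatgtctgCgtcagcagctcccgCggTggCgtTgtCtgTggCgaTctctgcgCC

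Such stretches separate the genes, but 555 of the 1830 windows of 100 bases of KRT81 (30.3%) also occurred in another gene, 538 of them in KRT86. KRT86 itself gave 360, 1349 and 105 normalized counts in the controls and 56.7, 164 and 264 in the depleted samples (log2 difference -1.45, limma adjusted p = 0.434). The 6 samples had the same order for KRT86 as for KRT81. The counts of this pair are uncertain to the extent that shared reads were left out or moved between the genes.

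Per kilobase, the order of the medians over the 3 controls was KRT7 (35150 normalized counts per kb), KRT81 (17440), KRT8 (4804), KRT18 (2831), KRT80 (223) and KRT19 (89.2). In the depleted samples it was KRT7 (32470), KRT81 (8063), KRT8 (6686), KRT18 (6128), KRT80 (1125) and KRT19 (20.9), and thus the same. In the depleted samples the ranges of KRT81, KRT8 and KRT18 overlapped, and in the controls those of KRT7 with KRT81, of KRT81 with KRT8 and of KRT8 with KRT18 did. KRT81 was the least abundant of these 3 in depleted replicate 1, at 1860 per kb beside 6128 for KRT18.

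**Figure D3:**
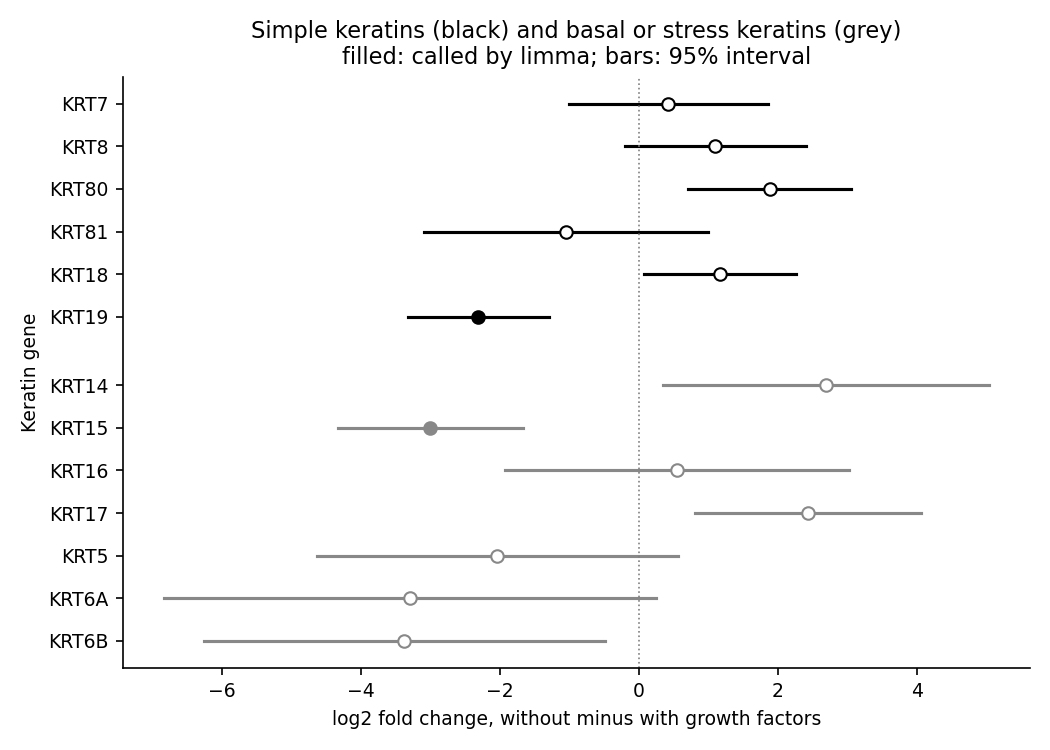
Log2 fold change (without minus with growth factors) of the 6 keratins (black) and of 7 basal and stress keratins (grey), with 95% intervals from limma (n = 3 per group). Filled points, KRT19 and KRT15, were called, and the intervals of KRT7, KRT8 and KRT81 include 0 while those of KRT80 and KRT18 do not, although neither passed after adjustment.

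The other keratins tested, 12 genes, had a median log2 difference of -0.86, with 5 positive and 7 negative, and 1 of them was called, beside 6.33% of all genes tested. This was KRT15, a type I keratin of basal epithelial cells, which fell from 114660, 70453 and 50863 normalized counts to 4356, 12902 and 14194 (log2 difference -3.003, SE 0.58, limma adjusted p = 0.0201). KRT15 was the most or second most abundant keratin in the controls. KRT17, a stress-inducible keratin, gave 9703, 16142 and 5882 in the controls. After depletion it gave 19236, 61385 and 123480, without overlap, but the adjusted p was 0.0877. KRT5 and KRT14, the basal pair, had log2 differences of -2.04 (adjusted p = 0.377) and 2.69 (adjusted p = 0.184) and overlapped between groups. KRT6A, KRT6B and KRT16 were not called either (-3.29, -3.38 and 0.55, adjusted p = 0.288, 0.176 and 0.838).

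The sum of all keratins per kilobase was 160510, 143850 and 60732 in the controls. It was 55332, 109310 and 190740 in the depleted samples, which enclosed the controls. Each keratin was therefore also expressed as a share of this sum, over the 20 keratin genes listed. KRT8 made up 3.02%, 3.34% and 2.25% in the controls and 7.86%, 6.12% and 5.67% in the depleted samples. KRT18 made up 1.76%, 3.04% and 1.999% and then 11.1%, 3.798% and 3.50%. KRT80 made up 0.118%, 0.340% and 0.367% and then 0.955%, 1.03% and 0.909%. For each of these 3 keratins all depleted samples lay above all controls (exact two-sided permutation test, p = 0.1, the smallest possible, n = 3 per group). The share of KRT19 was 0.0961%, 0.0557% and 0.147% with and 0.0393%, 0.0168% and 0.0110% without growth factors, below every control.

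KRT7 took 21.9%, 28.8% and 19.7% of the keratin sum in the controls and 46.8%, 29.7% and 26.4% in the depleted samples, and KRT81 took 10.9%, 18.8% and 7.90% and then 3.36%, 7.38% and 8.97% (exact permutation p = 0.2 for each, overlapping groups). Of the 18 keratins tested, 10 (55.6%) had shares that did not overlap between the conditions, so that 4 of the 6 listed keratins is close to the share among all of them. Shares of a sum are linked, so that a lower share of an abundant keratin goes with higher shares of the others. The share of KRT15 was 41.7%, 28.6% and 48.9% in the controls and 4.598%, 6.89% and 4.35% in the depleted samples, and that of KRT17 was 3.98%, 7.397% and 6.38% and then 22.9%, 37.0% and 42.7%. The 6 listed keratins together made up 37.8%, 54.4% and 32.4% of the sum in the controls and 70.0%, 48.0% and 45.5% in the depleted samples, which overlapped. The ratio of type II to type I keratins per kilobase was 0.984, 1.41 and 0.713 with and 1.47, 0.985 and 0.861 without growth factors, with no separation.

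**Figure D4:**
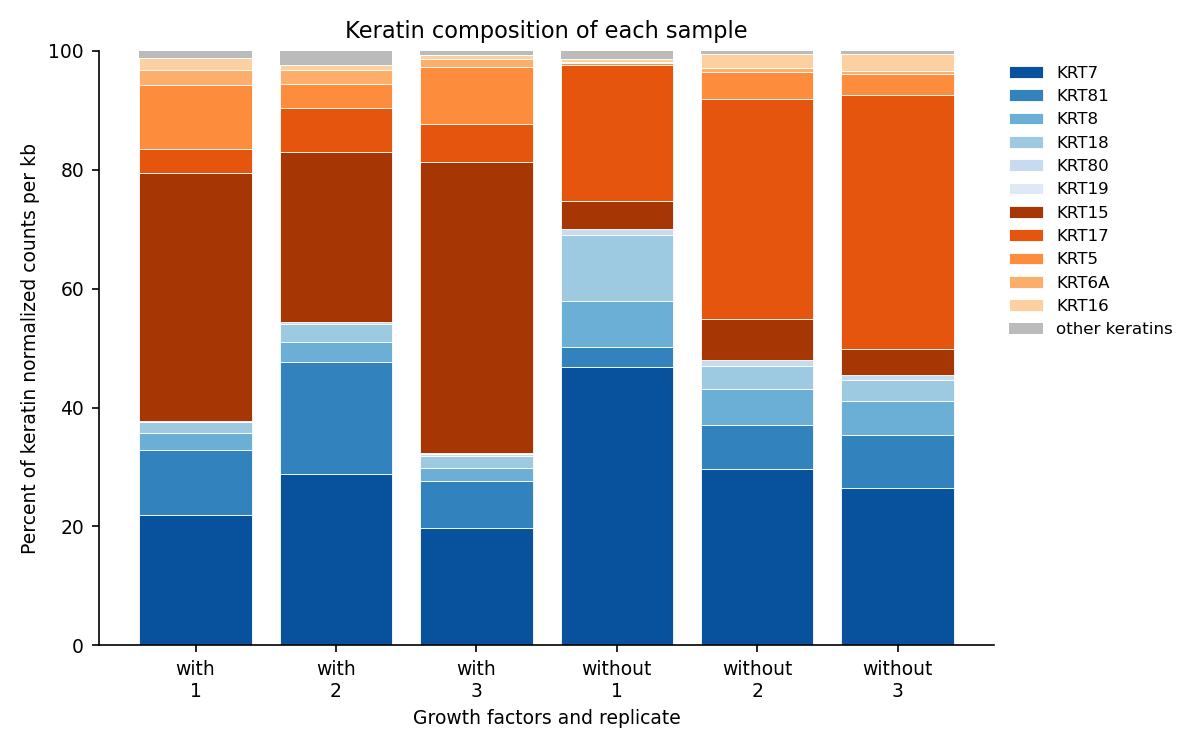
Share of each keratin in the summed keratin signal per kilobase in each sample, with the 6 listed keratins in blue and the basal and stress keratins in orange. KRT15 takes 28.6% to 48.9% in the controls and 4.35% to 6.89% in the depleted samples, KRT17 is 22.9% or more in all depleted samples, and depleted replicate 1 has the largest blue portion (70.0%).

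The 6 keratins also varied among themselves across the samples, which is given as a description over 6 samples that include both conditions and differ in depth. KRT7 and KRT8 had a Pearson correlation of log2 values of 0.94, KRT8 and KRT18 of 0.87 and KRT7 and KRT18 of 0.81. KRT80 and KRT19 ran in opposite directions (-0.87), and KRT81 was at most weakly related to KRT80 (0.11) and KRT18 (0.09). The correlations of KRT81 with KRT7, KRT8 and KRT19 were higher (0.64, 0.42 and 0.39). Control replicate 3 deviated from its group mean by -1.02 (KRT18), -1.11 (KRT7), -1.21 (KRT8) and -1.45 (KRT81) on the log2 scale. In the same sample, deviations of 12557 genes from their means over all 6 samples had a Spearman correlation of 0.36 with transcript length. This was the most positive of the 6 samples, and the lowest was -0.37 in control replicate 2. With GC content the correlation was 0.019 in control replicate 3, and it ranged from -0.339 in control replicate 1 to 0.235 in depleted replicate 1. After a correction for transcript length control replicate 3 was still the lowest control for KRT7 (22070), KRT8 (2713), KRT18 (2006) and KRT81 (10104 normalized counts). The part of RNA quality or library preparation in these values was not tested.

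**Figure D5:**
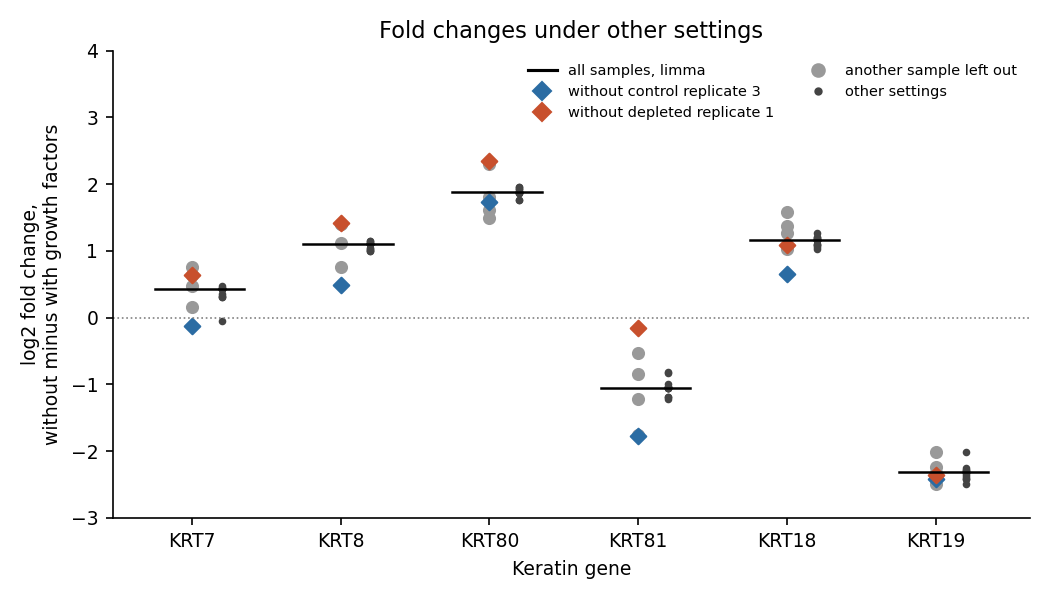
Log2 fold change (without minus with growth factors) of each keratin with all samples (black line), with single samples left out (diamonds for control replicate 3 and depleted replicate 1, grey circles for the others) and under other settings of normalization, filter, correction or tool (small points). KRT7 crosses 0 without control replicate 3, KRT81 comes near 0 without depleted replicate 1, and KRT80 and KRT19 keep their directions in all settings plotted.

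Over the 6 samples, the closest genes to each keratin, by Pearson correlation of log2 values, were picked from the 11688 genes that averaged 100 normalized counts or more. For KRT7 they were DDX49, MORF4L2 and SNX12 (0.99 or more each). For KRT8 they were GOLGA7, CAP1P1 and CAP1 (Pearson 0.998, 0.997 and 0.997), where CAP1 encodes an actin-binding protein and CAP1P1 is a pseudogene named after it. For KRT80 they were LRP3 and MEX3D (0.996 and 0.995) and a gene without a name in Gencode v44. For KRT81 they were UCHL3, HEBP2 and NDUFAF6 (0.986, 0.983 and 0.981). For KRT18 they were MEA1, NF2 and SCAND1 (0.999, 0.998 and 0.996), where NF2 encodes merlin. For KRT19 they were SLC35A1, MCCC1 and PAIP2B (0.997, 0.992 and 0.991). These are the highest of 11688 values for each keratin, each over only 6 samples that include both conditions and differ in depth.

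Proteins that link keratin filaments to desmosomes or bind them were covered by a list of 15 genes, of which 14 were tested, with a median log2 difference of -0.15. Of these, 1 was called, a share near the 6.33% of all genes tested. EVPL (envoplakin, a plakin of the cornified envelope) gave 1311, 1778 and 1907 normalized counts in the controls. The depleted samples gave 252, 449 and 458, all below the controls (log2 difference -2.14, SE 0.33, limma adjusted p = 0.00778). DSP (desmoplakin, which anchors keratins to desmosomes) gave 31201, 14059 and 26545 and then 4348, 11249 and 8090, and was not called (-1.63, adjusted p = 0.0933). PLEC (plectin) and PPL (periplakin) overlapped between groups (-0.51 and 0.22, adjusted p = 0.673 and 0.843).

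Of 19 transcription factors known to act on keratin or epithelial genes, 14 had negative and 5 positive log2 differences, with a median of -0.80, and 2 were called, beside 6.33% of all genes tested. TP63, the p63 factor of basal epithelial cells, gave 271, 359 and 1615 normalized counts in the controls. Depleted replicates 1 to 3 gave 8.24, 64.9 and 42.5 (log2 difference -4.18, limma adjusted p = 0.0270). ZEB1, a repressor of epithelial genes, gave 23.8, 23.4 and 48.2 in the controls. The depleted samples gave 1087, 436 and 293 (4.06, adjusted p = 0.00488). Neither group pair overlapped. Besides TP63, KLF5, EHF, ELF3, TFAP2C and GRHL1 were below every control in all depleted samples, an order found in 12.1% of all genes tested, but missed the threshold (adjusted p = 0.0521, 0.0537, 0.0664, 0.277 and 0.274). JUN was above every control and was not called (adjusted p = 0.197).

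RefSeq promoter sequences (250 bases before to 50 after the gene start) were at hand for 1 of the 6 keratins, KRT8, and its RefSeq start lay 21393 bases upstream of the start of the canonical transcript. On both strands that window held an E-box (CANNTG), as did 68.7% of the 35116 promoters. It did not hold the AP-1 letters TGANTCA (7.71% of promoters), the CRE TGACGTCA (1.85%), the RUNX core TGTGGT (13.1%), the Sp1 box GGGCGG (45.0%) or TATAAA (11.5%), which says only that these letters are not in this window.

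The labels call the cells luminal ductal cells, and markers of both mammary lineages were read in the same samples. Of 16 luminal markers 11 were tested, with a median log2 difference of -1.73 and 9 negative. Of these, 6 were below every control in all depleted samples, an order found in 12.1% of all genes tested. They include EHF and ELF3, which were also counted in the list of transcription factors. Only 1 of the 11 luminal markers tested was called, lower without growth factors, beside 1.97% of all genes tested called lower. The luminal factors GATA3, FOXA1 and ESR1 were present at 231 to 1013, 180 to 285 and 63.9 to 206 normalized counts in the controls. In the depleted samples GATA3 gave 186 to 692, which overlapped, while FOXA1 (98.9 to 159) and ESR1 (4.58 to 32.8) were below every control, and none of the 3 was called. The positive log2 differences of the list were those of PROM1 (3.37) and CD24 (0.25), neither called. AGR2, a protein of secretory luminal cells, was called, at 2144, 1135 and 420 with and 39.4, 9.84 and 6.71 without growth factors (-6.07, limma adjusted p = 0.00345). The basal keratin KRT5 stood at 5692 to 17200 normalized counts per kb in the controls, whereas its partner KRT14 stood at 7.82 to 162 per kb. With growth factors, the cells labelled luminal thus held abundant RNA of KRT5 and little of KRT14. In depleted replicate 1 KRT14 (599 per kb) exceeded KRT5 (251 per kb), while KRT5 was the higher in depleted replicates 2 and 3.

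Of 12 basal or myoepithelial markers, 3 were called up (MYLK, ACTA2 and OXTR, genes of contractile cells) and TP63 was called down, beside 6.33% of all genes tested called in either direction. In this list 6 log2 differences were positive and 6 negative. In the depleted samples 5 genes were above and 3 below every control, orders found in 13.5% and 12.1% of all genes tested. Some markers of cell types outside the epithelium were called up as well, beside 741 of the 16988 genes tested. The 4 fibroblast markers COL1A1, DCN, PDGFRA and THY1 summed to 165 to 263 normalized counts in the controls and to 1216 to 6558 in the depleted samples, with COL1A1 and PDGFRA called up and THY1 at 0 in control replicates 1 and 2. Of 3 endothelial markers 2 were tested. CDH5 was called up, at 4.10 to 8.77 normalized counts (5 to 7 reads) with and 25.6 to 119 without growth factors. PECAM1 was not called (log2 difference 0.087, limma adjusted p = 0.981), and the sum of the 3 overlapped between groups. The leukocyte marker PTPRC, too low to be tested, gave 1.25, 0 and 1.97 in the controls and 10.1, 13.8 and 11.2 in the depleted samples, without overlap. The part of these markers in the keratin values was not tested.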

How the data were processed

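Total RNA was depleted of ribosomal RNA and sequenced by the authors from stranded libraries as single 100-base reads, which were aligned to hg38 with TopHat2 and counted with HTSeq (Gencode v22). The deposited signal is these counts divided by DESeq2 size factors (normalized counts), and it is not divided by length. Every value was a whole multiple of 1 read within 0.01, so whole reads were recovered (7472418 to 28672630 on genes per sample, 100% of values whole). A floor of 3 reads was noted for counting error only, and values at or below it entered the tests unchanged.

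Conditions came from the labels. Genes averaging 10 or more over the samples (16988) were tested with limma 3.58.1 (lmFit, eBayes with trend, R 4.3.3) on log2(normalized count + 1), so that fold changes of low genes are understated. The alternatives, edgeR 4.0.16 (quasi-likelihood) and DESeq2 1.42.0 on recovered reads among them, are given in the closing section. The procedure was tested on simulated data. Names, coordinates and canonical transcripts came from Gencode v44 (18913 of 19198 identifiers named), and promoters from RefSeq. Whole canonical transcripts were aligned with Biopython 1.88, and identical bases were then counted over the coding bases of KRT18 or KRT81. The genes named are the 6 keratins, the other keratins, list members by counts with values for those that passed, and the 3 genes most correlated with each keratin. KRT86 and KRT7-AS were named because they overlap a keratin of the list, and a few list members that did not pass were chosen after their values were seen. The keratins and all lists were chosen with earlier results of these data known.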

Additional observations from a re-analysis of the deposited data

How the results depend on the processing

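With all samples 1 of the 6 keratins was called, KRT19. The count was 2 after quantile normalization, with DESeq2, with an adjusted p under 0.1 and with the transcript length correction and replicate block together, 3 for a 2-fold ratio of means with no p, and 0 with the length and GC correction and replicate block, a setting chosen after seeing the data. It ranged from 0 to 2 as single samples were left out. Of all genes, 1076 were called, against 2112 with DESeq2, 1706 at an adjusted p under 0.1, 4205 for a 2-fold ratio with no p, and 445 to 2483 with single samples left out, the last without control replicate 3. The labels do not say whether same-numbered samples belong together. Correlations of deviations were -0.073, -0.283 and -0.323 for same-numbered samples and -0.068 to 0.291 for the others. These cannot decide it, as each deviation is from a mean of only 3 samples. The replicate block in limma gave 967 genes, KRT80 called (adjusted p = 0.0344) and KRT19 not (0.0529). The KRT7 log2 difference reversed to -0.045 under quantile normalization and ranged from -0.13 to 0.76 with single samples left out. The difference in the log2 ratio of KRT8 to KRT18 ranged from -0.26 to 0.33. The cause was not tested. KRT8, KRT80, KRT81, KRT18 and KRT19 kept their directions in all settings run, as did the shares of the 6 keratins in the keratin sum, also without division by length. The depth limits KRT19 most, with 13 to 39 reads in the depleted samples.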
